A study of Danio rerio with 8 samples.

Results

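The Fos and Egr immediate early genes were described across the cell fractions and extracellular vesicles of fractured zebrafish scales. The members were chosen by symbol: fosab, fosb, fosl1a and fosl2 of the Fos family and egr1, egr2a, egr2b and egr3 of the Egr family, 8 of the 32057 genes in the tables. Each symbol matched 1 Ensembl gene ID, and fosab, fosl1a and egr2b were found through synonyms in RefSeq. RNA came from scales of adult fish at 1 day post-fracture, sorted into 4 fractions. The mCh+ fraction (trap:GFP-negative, osterix:mCherry-positive, Hoechst-high) is labelled osteoblasts, GFPlow (GFP-low, mCherry-positive, Hoechst-high) is labelled osteoclast precursors, and GFPhigh (GFP-high, Hoechst-high) is labelled mature osteoclasts. EV are mCherry-positive, Hoechst-low particles, labelled as extracellular vesicles of osteoblasts, so they are not whole cells. The genotype is given as wild type, whereas the sort used fish carrying both transgenes, in which a zebrafish trap (acp5a) upstream region drives membrane-bound GFP and a medaka osterix (sp7) upstream region drives Lifeact-mCherry. No intact scale was among the libraries, so no change caused by the fracture can be read from them.

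Immediate early genes are transcribed within minutes of a stimulus without new protein synthesis, largely through ERK signalling to serum response factor and its Elk partners. Fos proteins pair with Jun proteins to form AP-1, which binds DNA, whereas Egr proteins are zinc finger factors that act without such a partner and are restrained by the Nab co-repressors. In mammalian bone, c-Fos is required to form osteoclasts, and Fra-1 and Fra-2, the products of FOSL1 and FOSL2, act in osteoblasts and bone matrix formation. The same genes are known to respond to wounding and to tissue dissociation. All 4 fractions passed through an enzymatic digestion of the scale at 37 °C and a Hoechst stain before the sort, and its part in the levels below was not tested.

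Values are RPM, the reads of a gene scaled to a common library total but not to transcript length, so levels are compared between libraries and not between genes. Each fraction had 2 labelled replicates, but the tables of the 2 mCh+ replicates were identical over 32057 genes, and mCh+ was counted as 1 library. The 7 distinct libraries held 11814593 to 24435509 reads in genes. No s.d. can thus be given for mCh+, and the tests assume that mCh+ varies like GFPlow, GFPhigh and EV. The sums of 10 osteoclast marker genes, 18983 and 19379 RPM in GFPhigh against 3224 to 6467 RPM elsewhere, and of 11 osteoblast marker genes, 24665 RPM in mCh+ against 1082 to 9834 RPM elsewhere, were highest in the fractions so labelled. Most of the osteoblast sum was col1a2 (17068 RPM in mCh+), and ctsk was the largest part of the osteoclast sum. Of the osteoblast markers, alpl was higher in EV replicate 2 (37.1 RPM) than in mCh+ (28 RPM), and bglap was 0 in every library. The sum of 18 macrophage marker genes was 8034 to 11382 RPM in GFPlow and EV against 828 to 1318 RPM in mCh+ and GFPhigh, with 3 to 5 of them at 0 in each library, and most of it was lgmn, a lysosomal protease gene. Other macrophage markers differed from the sum. An mpeg1 gene (ENSDARG00000043093) was highest in mCh+ (167 RPM), and csf1ra had 176 and 197 RPM in GFPlow and 173 and 201 RPM in GFPhigh. Fibroblast markers (5 genes, none at 0 in any library) summed to 3478 RPM in mCh+, 1174 and 1172 RPM in GFPlow, 196 and 130 RPM in GFPhigh, and 1093 and 955 RPM in EV, and 4 of the 5 were called higher in mCh+ than in the mean of the others, as egr1 and fosb were. Their part in the mCh+ levels was not tested. Pigment cell markers (8 genes) summed to 11.6 RPM in mCh+, 380 and 364 RPM in GFPlow, and 722 and 499 RPM in GFPhigh. Their sum was 125 RPM in EV replicate 1 and 959 RPM in EV replicate 2. The largest part was gch2 in GFPhigh (596 and 406 RPM) and pmela in EV replicate 2 (509 RPM). Keratinocyte markers summed to 5685 to 8415 RPM in the cell fractions, 9760 RPM in EV replicate 1 and 2570 RPM in EV replicate 2.

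Every one of the 8 genes was higher in the mCh+ library than in either EV library, whereas the order of the cell fractions differed from gene to gene. Summed over the 4 Fos genes, the level was 1261 RPM in mCh+, 872 and 749 RPM in GFPlow, 586 and 501 RPM in GFPhigh, and 443 and 281 RPM in EV. The 4 Egr genes summed to 476 RPM in mCh+, 226 and 204 RPM in GFPlow, 128 and 135 RPM in GFPhigh, and 122 and 48 RPM in EV. The mCh+ sum was thus 3.48 times the EV mean for Fos and 5.6 times for Egr. Most of the Egr sum in mCh+ was 1 gene, egr1 (331 RPM), so the larger Egr ratio is not a trait of all 4 Egr genes. Among all 14006 genes tested, 39.9% were higher in mCh+ than in both EV libraries, and 21.7% were higher in mCh+ than in every other library, as were 5 of the 8 members. Both EV libraries lay below all others for 5 of the 8 members and 14.1% of all genes, and the order mCh+ above GFPlow above GFPhigh, with no overlap, held for 3 of the 8 members and 14.6% of all genes. In bulk samples such as these, fewer cells of a type and less RNA of a gene per cell cannot be told apart.

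**Figure D1:**
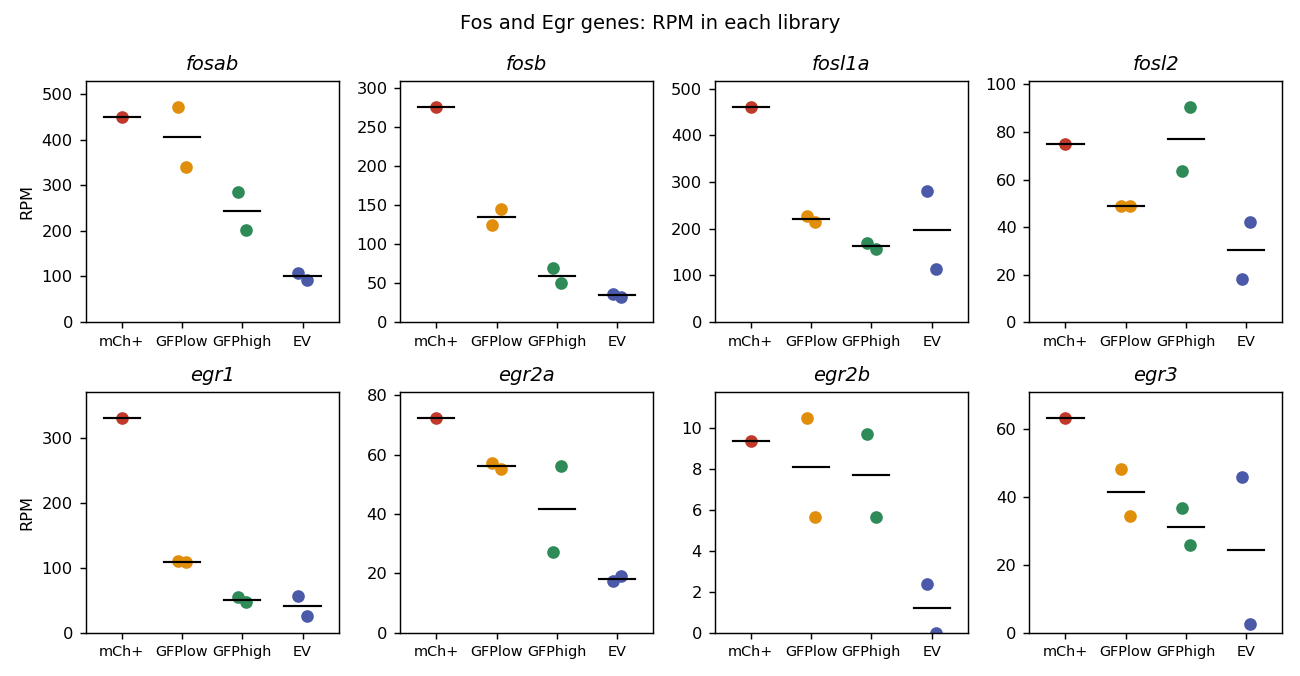
RPM (y axis, linear from 0, a scale for each gene) of the 8 Fos and Egr genes in each library of the 4 fractions (x axis). Points are libraries and bars are fraction means. mCh+ has 1 point, which for fosb (276 RPM) and egr1 (331 RPM) lies far above the rest, while the EV points of egr3 lie far apart (46.1 and 2.53 RPM).

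Of the Fos genes, fosab, the zebrafish counterpart of mammalian FOS, was high in the mCh+ and GFPlow libraries and low in EV. Its level was 449 RPM in mCh+, 472 and 341 RPM in GFPlow (406 ± 92.6, s.d., n = 2), 285 and 203 RPM in GFPhigh (244 ± 58.3, n = 2), and 108 and 93.0 RPM in EV (100 ± 10.3, n = 2). The mCh+ value lay between the GFPlow values, and both EV values lay below all others. By limma, EV was 4.45-fold below mCh+ (log2 fold change -2.15 ± 0.31 SE, adjusted p = 0.0182) and 2.39-fold below GFPhigh (-1.26 ± 0.25, adjusted p = 0.0234). EV against GFPlow did not pass (-1.99 ± 0.25, adjusted p = 0.0596), and neither did GFPhigh against mCh+ (-0.90 ± 0.31, adjusted p = 0.15).

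The gene fosb, whose mammalian product is another Fos partner of Jun, had the clearest order. It stood at 276 RPM in mCh+, 124 and 145 RPM in GFPlow (135 ± 14.9, n = 2), 68.7 and 50.7 RPM in GFPhigh (59.7 ± 12.7, n = 2), and 36.2 and 32.6 RPM in EV (34.4 ± 2.52, n = 2). No library of any fraction overlapped with those of the next. The fold was 7.83 for EV below mCh+ (-2.97 ± 0.31, limma adjusted p = 0.00938), 4.61 for GFPhigh below mCh+ (-2.20 ± 0.31, adjusted p = 0.00755) and 2.25 for GFPhigh below GFPlow (-1.17 ± 0.25, adjusted p = 0.0477). The last was near the threshold, with an adjusted p of 0.0527 without the mCh+ library and of 0.00775 to 0.384 over all alternatives. GFPlow against mCh+ (-1.03 ± 0.31, adjusted p = 0.195) and EV against GFPlow (-1.94 ± 0.25, adjusted p = 0.0596) did not pass.

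The gene fosl1a encodes a counterpart of mammalian Fra-1 and stood at 461 RPM in mCh+, 227 and 214 RPM in GFPlow, 169 and 157 RPM in GFPhigh, and 281 and 113 RPM in EV. The EV replicates lay on either side of all GFPlow and GFPhigh values, and no pair of fractions passed the test. Its largest fold was 2.82, for GFPhigh below mCh+ (-1.50 ± 0.48, limma adjusted p = 0.122). The gene fosl2, the counterpart of mammalian Fra-2, had another order: 75.0 RPM in mCh+, 48.7 and 48.8 RPM in GFPlow, 63.6 and 90.6 RPM in GFPhigh, and 18.1 and 42.2 RPM in EV. The GFPhigh libraries spanned the mCh+ value and lay above both GFPlow and both EV values. Its log2 fold change of GFPhigh against mCh+ was 0.02 ± 0.51 (adjusted p = 0.992), and EV against GFPhigh, at -1.42 ± 0.41, did not pass (adjusted p = 0.071).

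Among the Egr genes, egr1, which encodes an early zinc finger activator, was concentrated in mCh+. Its level was 331 RPM in mCh+, 110 and 109 RPM in GFPlow, 54.4 and 47.2 RPM in GFPhigh, and 56.0 and 26.6 RPM in EV. The mCh+ value was above every other library, GFPlow came next, and GFPhigh and EV overlapped. The level was 8.38-fold lower in EV than in mCh+ (-3.07 ± 0.43, limma adjusted p = 0.0174) and 6.42-fold lower in GFPhigh than in mCh+ (-2.68 ± 0.43, adjusted p = 0.0131). The 3.01-fold difference between GFPlow and mCh+ did not pass (-1.59 ± 0.43, adjusted p = 0.16).

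The paralogs egr2a and egr2b correspond to mammalian EGR2, a factor known from hindbrain and Schwann cell development. The level of egr2a was 72.5 RPM in mCh+, 57.1 and 55.3 RPM in GFPlow, 27.2 and 56.3 RPM in GFPhigh, and 17.6 and 19.0 RPM in EV, with both EV values below all others. EV against mCh+ did not pass (-1.93 ± 0.46, limma adjusted p = 0.0603). The gene egr2b had the fewest reads of the 8 members in every library, with a level of 9.37 RPM in mCh+, 10.5 and 5.67 RPM in GFPlow, 9.73 and 5.67 RPM in GFPhigh, and 2.40 and 0 RPM in EV. The EV values rest on 49 and 0 reads, and the 95% Poisson interval of the count of 0 reaches 0.183 RPM, by counting error only. The cell fractions overlapped fully, and no pair of fractions passed for egr2b.

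The gene egr3, a relative of egr1 that is likewise an activity-induced factor, was measured at 63.5 RPM in mCh+, 48.4 and 34.5 RPM in GFPlow, 36.8 and 25.8 RPM in GFPhigh, and 46.1 and 2.53 RPM in EV. The EV libraries held 940 and 51 reads of it, and their values lay on either side of the whole GFPhigh range. No pair of fractions passed, and the fold change in EV had an SE of 1.05 to 1.28 on the log2 scale. Without EV replicate 2, the log2 fold change of EV turned from -1.70 to 0.17 against GFPlow and from -1.30 to 0.56 against GFPhigh.

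A call needed a log2 fold change beyond 1 and an adjusted p under 0.05 (Benjamini-Hochberg, over the 14006 genes of a comparison). Against mCh+, 3 of the 8 members were lower in EV, where 2.26% of all genes were called lower, and 2 of 8 were lower in GFPhigh, where 4.74% were. Between GFPhigh and GFPlow, fosb was the member called lower, against 3.66% of all genes, and between EV and GFPhigh it was fosab, against 5.09%. For GFPlow against mCh+, limma called 0 members (195 genes, 1.39%, were called in all), and 2 members had an unadjusted p under 0.05, as did 13.6% of all genes. For EV against GFPlow it called 0 members (5 genes, 0.0357%), and 5 members had an unadjusted p under 0.05, as did 16.8% of all genes. The median log2 fold change of EV against mCh+ was -1.78 over the Fos genes and -2.41 over the Egr genes, beside -0.18 over all genes, and that of GFPhigh against mCh+ was -1.20 and -0.94 beside -0.15. When EV replicate 1 was left out, these EV medians were -2.14 (Fos) and -3.48 (Egr), and leaving out EV replicate 2 gave -2.02 and -1.80, so the order of the families turned with the library left out. Quantile normalization moved the median of all genes for EV against mCh+ from -0.18 to 0.06, and the direction of each of the 7 called pairs was kept.

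These calls draw their spread from few libraries and share it over all 4 fractions. Fitted with only the libraries of the pair, GFPlow against mCh+ gave 3 member calls, beside 8.54% of all genes. The same kind of fit for EV against mCh+ called 0 members and 0 genes. The calls of both pairs thus depended on the shared spread. Leaving out GFPlow replicate 1 left 0 of the 7 calls between pairs of fractions, GFPlow replicate 2 left 1, GFPhigh replicate 1 left 2 and GFPhigh replicate 2 left 1, whereas 23 and 18 member calls were made without EV replicate 1 and EV replicate 2. Calls over all genes moved the same way, from 5.08% of the tests of the 6 pairs with every library to 0.734% to 1.1% without a GFPlow or GFPhigh library and to 16.1% and 13.2% without EV replicate 1 and EV replicate 2. Over all alternatives the log2 fold change of EV against mCh+ stayed between -2.37 and -2.04 for fosab, between -3.10 and -2.84 for fosb, and between -3.59 and -2.54 for egr1. With edgeR on the reads of mCh+, GFPhigh and EV, 0 members were called in the 3 pairs. Of all genes, edgeR called 1.7% in GFPhigh against mCh+, 0% in EV against mCh+ and 2.12% in EV against GFPhigh. Its 0 for EV against mCh+ thus says nothing particular about the members. In the same order, 3, 4 and 4 members had an unadjusted p under 0.05, beside 14%, 15.6% and 20.9% of all genes. DESeq2 on the same reads called 7 members over these pairs, beside 9.18%, 7.57% and 13.1% of all genes.

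**Figure D2:**
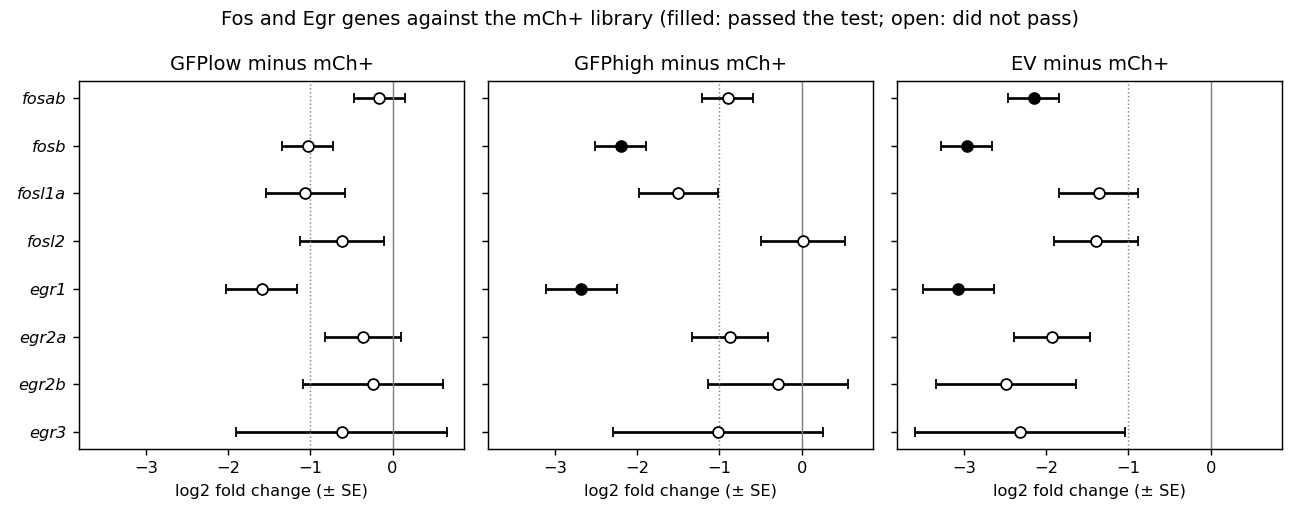
Log2 fold change of GFPlow, GFPhigh and EV against the mCh+ library (x axis, the same scale in each panel, with SE from limma as bars) for the 8 genes. Filled points passed the test: fosb and egr1 in GFPhigh, and fosab, fosb and egr1 in EV. The dotted line marks a log2 fold change of -1.

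Set against the mean of the other 3 fractions, EV was lower for fosab (-1.80 ± 0.22, limma adjusted p = 0.00874), fosb (-1.89 ± 0.21, adjusted p = 0.00789), egr1 (-1.64 ± 0.30, adjusted p = 0.0285) and egr2a (-1.52 ± 0.32, adjusted p = 0.0387), which is 4 of 8 members beside 3.23% of all genes. In the same way, mCh+ was higher for egr1 (2.45 ± 0.38, adjusted p = 0.0207) and fosb (2.07 ± 0.27, adjusted p = 0.0129), 2 of 8 beside 2.1% of all genes. These contrasts share their libraries with the pairs above. In GFPhigh, fosb reached an adjusted p of 0.0436 at a log2 fold change of -0.87, short of the fold asked for. Without GFPlow replicate 1 or GFPlow replicate 2, 0 of these 6 calls were made, without GFPhigh replicate 1 or GFPhigh replicate 2, 2 were made, and without EV replicate 1 or EV replicate 2, 12 and 10 member calls were made. Over all genes, 5.1% of the tests of these 4 contrasts were called with every library, 0.736% to 0.976% without a GFPlow or GFPhigh library, and 14.4% and 12% without EV replicate 1 and EV replicate 2.

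The EV replicates differed more in these genes than the replicates of the cell fractions did. The median difference between replicates on the log2(RPM + 1) scale was 0.15 over the 8 genes in GFPlow, 0.49 in GFPhigh and 1.11 in EV. Beside these stand 0.26, 0.28 and 0.50 for genes with a mean of at least 10 RPM in the fraction, which egr2b did not reach. Over all genes tested the medians were 0.35, 0.36 and 0.62. In EV, fosab, fosb and egr2a differed by 0.21, 0.15 and 0.10. The other 5 genes differed by more than 1, up to 3.74 for egr3, and all of these except fosl2 were lower in EV replicate 2. A difference beyond 1 was found for 22.4% of the genes at 10 RPM or more in EV. The keratinocyte marker sum was likewise lower in EV replicate 2 and the pigment cell marker sum higher, as given above, and their part in these differences was not tested.

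**Figure D3:**
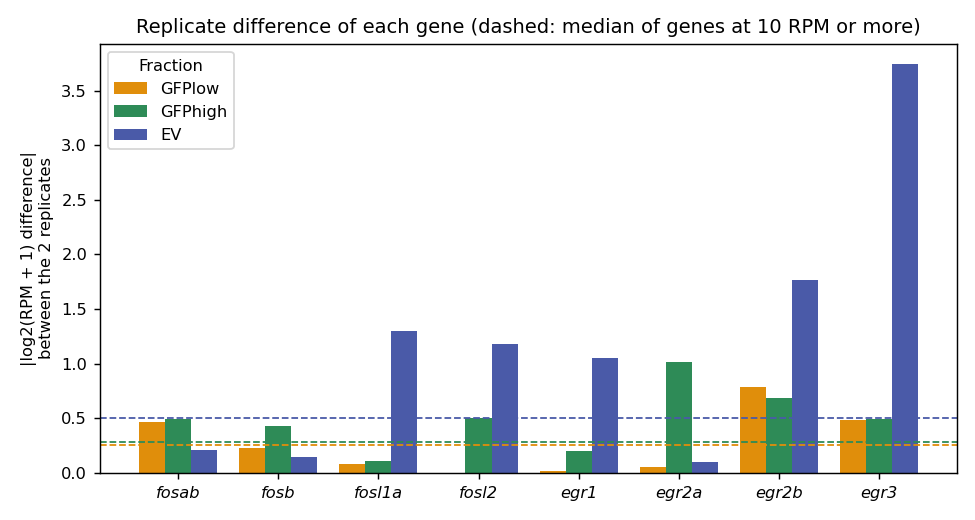
Absolute difference between the 2 replicates of a fraction on the log2(RPM + 1) scale (y axis) for the 8 genes (x axis), in GFPlow, GFPhigh and EV. Dashed lines are the medians of all genes with a mean of at least 10 RPM in that fraction (0.26, 0.28 and 0.50). The EV bars of fosl1a, fosl2, egr1, egr2b and egr3 exceed 1.

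The ratio of each gene to fosab within a library was taken after adding 1 RPM to both. It depends on the library total only through that addition. On the log2 scale, fosl2 stood at -2.57 relative to fosab in mCh+ and at -3.25 and -2.78 in GFPlow. It stood at -2.15 and -1.15 in GFPhigh and at -2.51 and -1.12 in EV. The GFPhigh libraries thus held more fosl2 per fosab than GFPlow did, and the EV values spanned those of GFPhigh. The ratio of fosl1a was 0.04 in mCh+, -1.05 and -0.67 in GFPlow, -0.75 and -0.37 in GFPhigh, and 1.38 and 0.28 in EV, where both values lay above all cell libraries. That of fosb was -0.70 in mCh+ and -2.04 to -1.23 in the other libraries.

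Jun proteins are the partners of Fos in AP-1, and the sum of the Jun genes followed a like order, though not every Jun gene did. The 4 Jun gene IDs summed to 4031 RPM in mCh+, 3269 and 3003 RPM in GFPlow, 1612 and 1578 RPM in GFPhigh, and 1436 and 1146 RPM in EV. The level of jun was 1297 RPM in mCh+, 1110 and 918 RPM in GFPlow, 442 and 384 RPM in GFPhigh, and 519 and 343 RPM in EV, and it was 3.14-fold lower in GFPhigh (-1.65 ± 0.29, limma adjusted p = 0.0172) and 3.07-fold lower in EV (-1.62 ± 0.29, adjusted p = 0.0298) than in mCh+. Both gene IDs with the symbol junb, ENSDARG00000074378 and ENSDARG00000104773, were also lower in EV (-1.54 ± 0.21 and -1.75 ± 0.17) and in GFPhigh (-1.41 ± 0.21 and -1.16 ± 0.17) than in mCh+. The EV values of ENSDARG00000074378, 363 and 297 RPM, spanned its GFPhigh values, 360 and 360 RPM, as those of jun did. The level of jund was 91.5 RPM in mCh+, 111 and 78.6 RPM in GFPlow, 61.5 and 71.8 RPM in GFPhigh, and 44.2 and 18.3 RPM in EV, and no pair of fractions passed.

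Of the 9 tested genes on a list of AP-1 partners, 3, jun and both junb genes, were called lower in GFPhigh and in EV against mCh+. Beside them stand 4.74% and 2.26% of all genes. The list's median was -1.16 and -1.54, with 7 and 8 of the 9 below 0. Atf3, a stress-induced partner that can repress transcription, was highest in EV, with 138 RPM in mCh+, 218 and 144 RPM in GFPlow, 147 and 137 RPM in GFPhigh, and 283 and 227 RPM in EV. Both EV values of atf3 lay above all other libraries, but EV against mCh+ did not pass (0.88 ± 0.31, limma adjusted p = 0.161). The inhibitory partner jdp2 (ENSDARG00000020133) stood at 68.9 RPM in mCh+, 76.2 and 65.6 RPM in GFPlow, 42.7 and 46.5 RPM in GFPhigh, and 26.7 and 29.3 RPM in EV (EV against mCh+ -1.27 ± 0.31, adjusted p = 0.0619). One mafg gene (ENSDARG00000100097), a small Maf protein gene at 2.79 RPM or less, was lower in EV than in GFPhigh (-1.83 ± 0.41, adjusted p = 0.032), and batf2 and mafk, at 8.83 RPM or less, passed in no pair. The genes batf, batf3, maff and the other jdp2 and mafg genes stayed below the filter of 1 RPM in 2 libraries.

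The other Fos and Egr genes were low. The fosl1b gene, a paralog of fosl1a, had 13.7 RPM in mCh+, 5.57 and 7.85 RPM in GFPlow, 1.24 and 1.86 RPM in GFPhigh, and 0.69 and 7.78 RPM in EV, and passed in no pair. The level of egr4 was 3.89 RPM or less and 0 in GFPhigh replicate 2 and both EV libraries. Neither fosaa, the paralog of fosab, nor fosl2l reached the filter. How reads shared by such paralogs were counted is not given in the sources used here. Among the Nab co-repressors, which bind Egr proteins, the nab1 gene ENSDARG00000042940 was at 51.7 RPM in mCh+, 16.7 and 28.4 RPM in GFPlow, 2.94 and 3.30 RPM in GFPhigh, and 14.5 and 33.0 RPM in EV. It was 12.8-fold lower in GFPhigh than in mCh+ (-3.68 ± 0.60, limma adjusted p = 0.0135), and 5.57-fold higher in EV than in GFPhigh (2.48 ± 0.49, adjusted p = 0.0216), a pair in which egr1 did not pass (-0.38 ± 0.35, adjusted p = 0.535). The second nab1 gene ENSDARG00000040700, at 16.0 RPM or less, and nab2, at 9.30 RPM or less, passed in no pair.

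Wider lists of the same response had EV medians of -0.99 to -0.08 against mCh+. Of 45 other immediate early genes tested, 7 were lower in GFPhigh than in mCh+ (list median -0.67), beside 4.74% of all genes. In EV 6 were lower and 2 were higher (median -0.49), beside 2.26% and 2.79% of all genes. The call of smallest p was ccn1, which encodes a matricellular protein and fell from 1261 RPM in mCh+ to 129 and 103 RPM in EV (-3.44 ± 0.26, limma adjusted p = 0.0091). Of 19 feedback inhibitors, 5 were lower in GFPhigh than in mCh+ (median -0.91), beside 4.74% of all genes. In EV 1 was lower (median -0.99, with 18 of 19 below 0), beside 2.26% of all genes. Those lower in GFPhigh included zfp36l1 (ENSDARG00000021443, -2.09 ± 0.26), an mRNA decay factor, socs3 (ENSDARG00000026611, -2.06 ± 0.33), a cytokine signalling inhibitor, and spry2, an inhibitor of receptor tyrosine kinase signalling (-2.47 ± 0.46). The other zfp36l1 gene, ENSDARG00000016154, had 273 RPM in mCh+ and 164 and 141 RPM in GFPhigh. Of 27 genes of the upstream ERK and serum response factor pathway, 1 was lower in GFPhigh than in mCh+, beside 4.74% of all genes. That count thus says nothing particular about the list. The list's medians were -0.01 for GFPhigh and -0.08 for EV. In this list map2k1, a kinase that activates ERK, was lower in GFPhigh when set against the mean of mCh+, GFPlow and EV (-2.01 ± 0.22, limma adjusted p = 0.00229). It had 187 RPM in mCh+, 48.9 and 62.8 RPM in GFPlow, 22.9 and 26.6 RPM in GFPhigh, and 93.0 and 116 RPM in EV. On the same list map2k2a had 147 and 109 RPM in GFPhigh and 110 RPM in mCh+. The gene elk1, a partner of serum response factor, was lower in EV against the mean of the cell fractions (-2.64 ± 0.54, limma adjusted p = 0.0367). Its level was low, with 9.43 RPM in mCh+, 6.26 and 2.55 RPM in GFPlow, 7.26 and 15.9 RPM in GFPhigh, and 0.88 and 0 RPM in EV. Another Elk gene, elk4, had 4.42 RPM in mCh+ and 4.90 and 3.91 RPM in EV.

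**Figure D4:**
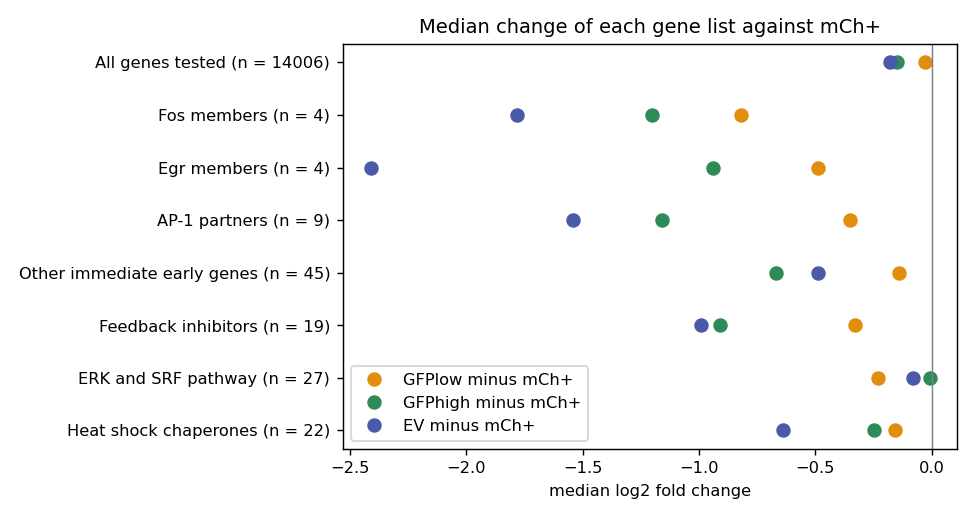
Median log2 fold change of GFPlow, GFPhigh and EV against mCh+ (x axis) for each gene list (y axis, with the number of tested genes). The EV medians of the Fos and Egr genes (-1.78 and -2.41) and of the AP-1 partners (-1.54) lie farther from 0 than that of all genes (-0.18) and that of the ERK and SRF (serum response factor) pathway (-0.08). The Egr median is -1.80 without EV replicate 2.

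The summed level of genes that c-Fos and Nfatc1 drive in mammalian osteoclasts was highest in GFPhigh. It was 19095 and 19445 RPM there, against 3775 to 6691 RPM elsewhere. The list shares acp5a, ctsk, nfatc1, mmp9, ocstamp, itgb3 and tcirg1 with the osteoclast markers above. Its sum is thus no separate readout from theirs, and ctsk (8408 and 9433 RPM in GFPhigh) was again the largest part. Not every gene followed the sum. The gene tnfrsf11a had 72.3 RPM in mCh+ against 69.2 and 47.6 RPM in GFPhigh, and fosl1a was likewise highest in mCh+. Of 12 such genes tested, a list that also holds fosl1a, 6 were higher in GFPhigh than in mCh+ and 6 than in GFPlow, beside 3.14% and 0.757% of all genes, and 6 were lower in EV than in GFPhigh (list median -1.73, beside -1.01 over the Fos genes). The gene acp5a, part of whose upstream region drove the GFP used in the sort, reached 1132 and 1538 RPM in GFPhigh against 12.5 RPM in mCh+ and 161 and 144 RPM in GFPlow. The gene nfatc1, the osteoclast factor induced by c-Fos, stood at 406 and 284 RPM in GFPhigh, 118 and 119 RPM in GFPlow, 124 RPM in mCh+, and 27.4 and 15.7 RPM in EV, with EV lower than GFPhigh (-3.97 ± 0.32, limma adjusted p = 0.000946). Heat shock chaperones (22 genes), which also respond to handling, took 12.1% of the reads in mCh+ and 9.85% and 10.7% in GFPlow. Their share was 10.2% and 10.6% in GFPhigh, and 6.19% and 7.35% in EV. The mCh+ library was thus highest and the EV libraries lowest for this share as for the Fos and Egr sums. Its largest parts were hsp70l and hsp70.3 (44627 and 34501 RPM in mCh+), and not every chaperone followed. Of the 22, 7 had a log2 fold change of EV against mCh+ above 0, and 4 were called lower, beside 2.26% of all genes. The gene hspb1 had 529 RPM in mCh+ and 815 and 1254 RPM in EV. Likewise, hsp90ab1 had 16097 RPM in mCh+ and 22221 and 22621 RPM in GFPhigh. The list also holds both serpinh1 genes. Of these, ENSDARG00000019949 had 1523 RPM in mCh+ and 92.1 and 132 RPM in EV. The other, ENSDARG00000075954, had 167 RPM in mCh+ and 70.0 and 47.8 RPM in EV. The part of the chaperone share in the Fos and Egr levels was not tested. Leaving the chaperones out of the library totals gave 7 member calls over the pairs of fractions.

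Across the 7 distinct libraries the members did not share a single pattern. On the log2(RPM + 1) scale Pearson's r was 0.95 for fosb and egr1 and 0.91 for fosab and fosb, and -0.07 for fosl1a and fosl2. These are descriptions over 7 libraries of 4 fractions. Of 7263 genes compared, those closest to fosb were dll1, a Notch ligand gene (r = 0.982), fam83e (0.982) and btg2, an antiproliferative immediate early gene (0.981). The gene btg2 had 476 RPM in mCh+, 368 and 331 RPM in GFPlow, 210 and 166 RPM in GFPhigh, and 151 and 116 RPM in EV. Closest to egr1 were slc51a (0.991), ackr3, a chemokine scavenger receptor gene (0.983), and tspan34b (0.981), and closest to fosab were iqgap3 (0.990), ptgdsb.1 (0.978) and tnfsf10l3 (0.970). The genes closest to fosl1a were slc43a1 (0.981), crim1 (0.977) and phc2b (0.971), and to fosl2 zgc:55733 (0.983), zfp91 (0.973) and gstr (0.969). For egr2a they were si:dkey-177p2.6 (0.993), nme5 (0.976) and mapk12 (0.974), and for egr3 fzd2 (0.991), nt5c1bb (0.991) and smad2 (0.989). The gene egr2b did not reach 10 RPM in 2 libraries and was not compared.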

How the data were processed

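RNA of the sorted fractions was amplified by Quartz-Seq, which primes with oligo-dT and adds no molecular identifiers. The submitters' processing notes name GRCz11, HISAT2 2.1.0 for mapping and Subread 1.6.4 for counting. RPM values, to 2 decimals, were deposited by the authors. Strand setting and annotation release: not given in the sources used here. Depth was found from the size of 1 read in RPM, which divided 100% of the values evenly to within 0.005 RPM.

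limma 3.58.1 (trend and robust, R 4.3.3) was applied to log2(RPM + 1). Genes that did not reach 1 RPM in 2 libraries were left out, which kept 14006. The fit had a mean for each of the 4 fractions, left 3 residual degrees of freedom and gave 10 contrasts. Folds are on the log2(RPM + 1) scale and understate changes of low genes. edgeR 4.0.16 and DESeq2 1.42.0 were alternatives on reads recovered in 5 libraries, without GFPlow.

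The members and lists were chosen with earlier results of these data known. All members, AP-1 partners, other Fos and Egr genes and Nab genes were named, with up to 4 called genes of smallest p per other list. For each member, the 3 genes of highest r were named among genes at 10 RPM or more in 2 libraries. Symbols were matched directly, through RefSeq synonyms, or without their last letter. On the AP-1 list, the names of the jund paralogs were replaced by jund after the files had been seen, since the former matched no gene. The experiment was performed once. The p-values rest on the spread between the replicates of GFPlow, GFPhigh and EV, shared over the fractions, and on none within mCh+. Sequences were not used here.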

Additional observations from a re-analysis of the deposited data

How the results depend on the processing

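Over the pairs of fractions 7 member calls were made, and the count was 11 with quantile normalization, 3 by limma without its trend and robust settings, and 0 to 23 with a library left out. For a fraction against the mean of the other 3 the count was 6, with 2 by limma without trend and robust settings and 0 to 12 with a library left out. Of the 6 calls within mCh+, GFPhigh and EV, edgeR made 0 and DESeq2 made 7 calls there. The shares of all genes that each tool called are given above. Of the 2 within GFPlow, GFPhigh and EV, 1 was made without the mCh+ library, where fosb in GFPhigh against GFPlow had an adjusted p of 0.0527 by limma. Other pseudocounts, filters and scalings gave 5 to 10 calls over the pairs. For egr3 without EV replicate 2, the log2 fold change of EV turned to 0.17 against GFPlow, 0.56 against GFPhigh and 0.09 against the mean of the others, and without EV replicate 1 it was -3.57, -3.17 and -3.64. The cause of these changes was not tested. No called fold changed its direction under any alternative run.

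The replicate numbers were not taken as paired. Deviations of same-numbered libraries correlated at r = 0.172, 0.070 and 0.070 over genes. Such correlations cannot decide whether these libraries came from the same preparation of scales. With the replicate number as a block, 10 and 9 member calls were made.

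With 1 mCh+ library and pairs elsewhere, no spread within mCh+ was measured. Read numbers limit egr2b in EV (49 and 0 reads).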

Other observations

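Some immediate early genes outside the Fos and Egr families were higher in EV than in GFPhigh, a pair in which fosab was called lower. Of 45 tested, 6 were higher in EV than in GFPhigh and 1 was lower, beside 6.58% and 5.09% of all genes. The summed level of this list was lowest in GFPhigh (3753 and 4208 RPM). Against mCh+, 2 were higher in EV and 6 were lower (median -0.49), beside 2.79% and 2.26% of all genes. Against GFPlow, 0 were called in EV. The gene plk3, a stress-responsive kinase gene, had 111 RPM in mCh+, 164 and 165 RPM in GFPlow, 65.7 and 80.9 RPM in GFPhigh, and 347 and 280 RPM in EV (EV against GFPhigh 2.08 ± 0.22, limma adjusted p = 0.00219). Growth arrest gene gadd45b (ENSDARG00000027744) stood at 496 and 475 RPM in EV and 113 and 149 RPM in GFPhigh (1.90 ± 0.22, limma adjusted p = 0.00341), but its GFPlow values, 535 and 417 RPM, spanned the EV values. The other gadd45b gene, ENSDARG00000013576, had 33.1 and 49.2 RPM in EV and 30.7 and 40.6 RPM in GFPhigh. For csrnp1b, a nuclear protein gene, the levels were 510 and 343 RPM in EV, 352 RPM in mCh+, 195 and 210 RPM in GFPlow, and 119 and 93.2 RPM in GFPhigh (1.98 ± 0.25, adjusted p = 0.00481).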
